A study of Rattus norvegicus with 22 samples.

Results

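The distal convoluted tubule (DCT) cells of rat kidney were described from an snRNA-Seq annotation. The members were all nuclei to which the annotation gives the cell type name DCT, whatever the treatment. They numbered 17955 of 310282 nuclei, or 5.79% of the total, which made DCT the fifth most numerous of 16 cell types, and they came from all 22 libraries. Nuclei of the loop of Henle (LOH), DCT, principal cells (PC) and type A and type B intercalated cells (IC_A and IC_B) are called distal nuclei here. DCT made up 21.1% of these 85145 nuclei. The annotation gives DCT nuclei 1 name, with no separate name for early or late DCT or for the connecting tubule.

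The tissue was kidney of male Sprague-Dawley rats, which the paper describes as whole kidney samples. Nuclei were isolated from a small amount of frozen tissue per sample. Which parts of the kidney that tissue held is not given in the sources used here. Whether cell type shares varied with the piece taken was not tested. Control rats were sham operated and kept both kidneys, received sesame oil and drank tap water. All other rats had lost 1 kidney, drank salt water and received weekly subcutaneous deoxycorticosterone acetate (DOCA) at 50 mg/kg, so that DOCA, nephrectomy and salt cannot be told apart. The DOCA group was gavaged daily with vehicle, and 3 further groups received, with DOCA, finerenone at 10 mg/kg/d, spironolactone at 50 mg/kg/d or amiloride at 20 mg/kg/d. Control has 5 samples and amiloride 2, all from 6 weeks, and DOCA, finerenone and spironolactone each have 4 from 6 weeks and 1 from 3 weeks. The annotation lists as many libraries in each treatment as there are samples. The library names, such as RK8.2, match no sample's labels, so that both time points are pooled within a treatment. Since libraries were not matched to samples, they were not used as replicates in a test between treatments, and no SD is given. Values are given per library. Means, ranges, overlap and a screen for outlying libraries take each library as 1 value.

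The DCT follows the loop of Henle and precedes the connecting tubule and collecting duct. Its cells take up sodium and chloride from the urine through the thiazide-sensitive cotransporter NCC, which is encoded by *Slc12a3*, the gene used to mark DCT here. Principal cells lie further downstream, reabsorb sodium through the epithelial sodium channel ENaC and water through aquaporin 2, and are classic targets of mineralocorticoids. Late DCT cells share ENaC and part of the mineralocorticoid response with them. DOCA is a mineralocorticoid, spironolactone a steroidal and finerenone a nonsteroidal antagonist of the mineralocorticoid receptor, and amiloride blocks ENaC. The DCT changes its mass with sodium delivery and potassium balance, which makes its share among distal cells a quantity of interest in this model. Gene counts were not analysed here, so the label was not checked against *Slc12a3*, and no gene values are given.

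Several libraries stood apart. RK8.2.New and RK7.1.New under finerenone and RK6.1.New under spironolactone held more than 30000 nuclei each, and RK6.1.New alone gave 62.2% of the spironolactone DCT nuclei. At the other end, the spironolactone library RK4.1 held 26 DCT nuclei and the control library RK12.2 held 69. RK12.2 and RK12.2.Old.MO, both from control, share a name stem, as do RK6.1 and RK6.1.New under spironolactone, and whether such a pair came from the same rat is not given in the sources used here. Stems were also shared across treatments: RK2.2, RK7.1 and RK8.2 each name 1 DOCA and 1 finerenone library, and RK12.2 also names the amiloride library RK12.2.New.MO. The treatment of each library is the one the annotation gives, and what a shared stem means there is likewise not given, which bears on 3 of the 5 DOCA, 3 of the 5 finerenone, 2 of the 5 control and 1 of the 2 amiloride libraries. The names of 5 libraries, 1 in each treatment, end in MO, read here as a mark of the Multiome kit, and 11 names carry an Old or New tag. Of 300310 distinct barcodes, 3.26% occurred in more than 1 library. Of the barcodes, 23 were called DCT in more than 1 library. Counts of nuclei are given with exact (Clopper-Pearson) 95% confidence intervals where a single library matters, and these cover counting error only.

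The first question was whether DCT nuclei took a different share of the kidney with DOCA. As a share of all nuclei, DCT was 2.00%, 5.17%, 5.26%, 5.57% and 6.91% in the 5 control libraries. In the DOCA libraries it was 4.46%, 4.57%, 6.96%, 8.56% and 10.0%. The DOCA libraries reached higher than the control libraries, but the 2 lowest of them lay inside the control range. The mean over libraries was 4.98% in control and 6.91% in DOCA, a difference of 1.93 percentage points, and the pooled shares were 5.10% and 7.84%. Among all 16 cell types, the shares of 2 types, lymphocytes and proliferating tubule cells, did not overlap between DOCA and control libraries (12.5%), and DCT was not one of them. The difference was 0.505 percentage points in libraries without a name tag and 4.08 in those with one, and without the DOCA library RK9.1.Old.MO it was 1.16.

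Among distal nuclei the groups lay further apart. This denominator leaves out the proximal tubule, which took a very different share of different libraries. The control libraries had DCT shares of 5.04%, 13.7%, 15.4%, 18.5% and 25.1% of distal nuclei. The DOCA libraries had 23.0%, 25.4%, 25.5%, 26.5% and 26.5%. Only the highest control library, RK11.3, reached into the DOCA range, which spanned less than 4 percentage points, whereas control spanned more than 20. The mean over libraries was 15.6% in control and 25.4% in DOCA, a difference of 9.84 percentage points, and with single libraries omitted it lay between 7.21 and 12.23. The smallest of these values was the one without RK12.3, the control library with 106 DCT nuclei, whose own share had a 95% CI of 4.14% to 6.06%. The difference was 10.4 percentage points in tagged and 9.45 in untagged libraries. In the Multiome pair it was 18.5% in control against 26.5% in DOCA. None of the 5 distal types had shares of distal nuclei that did not overlap between DOCA and control (0%).

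The loop of Henle was the most numerous distal type. LOH made up 45.4% of distal nuclei on average in control and 33.2% in DOCA, where single libraries spanned 29.1% to 60.05% and 24.7% to 39.4%, and PC made up 21.3% and 21.7%. When LOH was left out of the denominator, DCT took 12.6% to 35.4% of the remaining distal nuclei in control and 33.9% to 40.7% in DOCA, with means of 27.2% and 38.1%. The DCT difference thus had the same direction with and without LOH. A larger number of DCT nuclei and a smaller number of other nuclei cannot be told apart from shares.

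**Figure D1:**
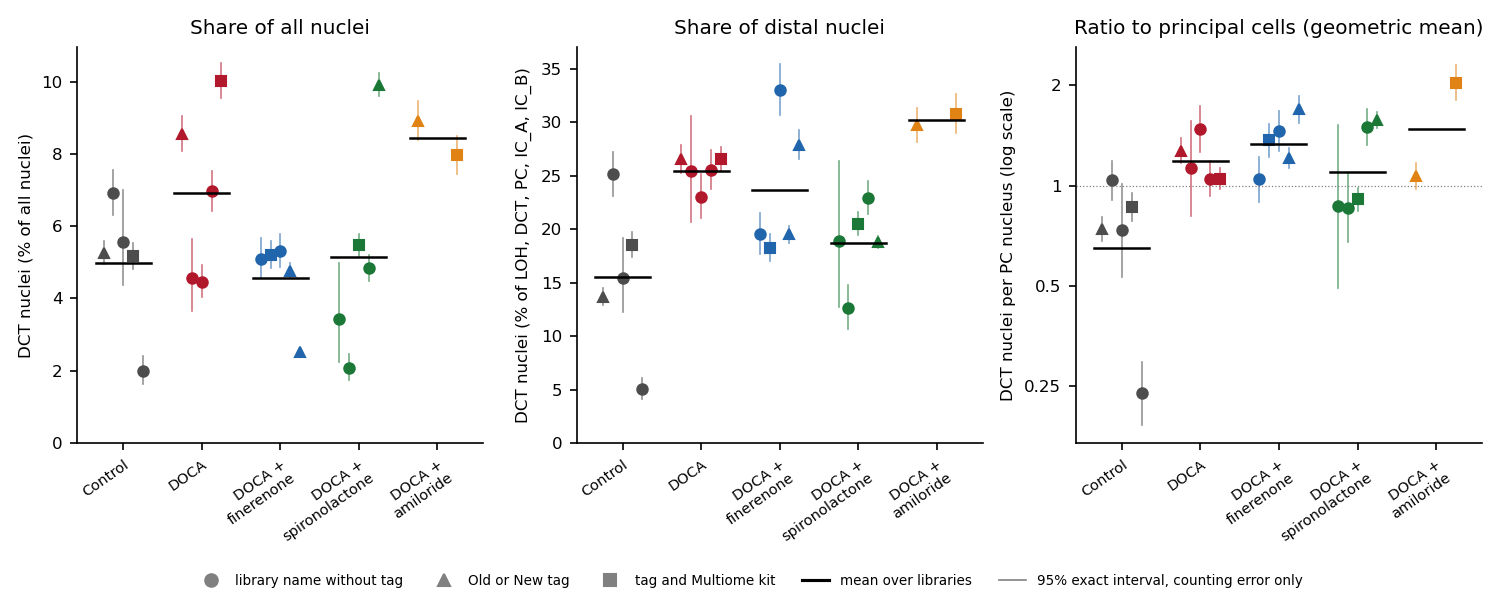
DCT nuclei per library in each treatment, as percent of all nuclei (left), as percent of distal nuclei (middle) and as DCT nuclei per PC nucleus on a log scale (right). Each symbol is 1 library, black bars are means over libraries (geometric in the right panel) and thin lines are exact 95% intervals for counting error. Ratios to PC were 0.238 to 1.04 in control and 1.05 to 1.47 in DOCA, and both amiloride libraries lay above all DOCA libraries in the middle panel.

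The ratio to principal cells sets DCT nuclei against those of a distal cell type further downstream. There were 0.238, 0.734, 0.743, 0.863 and 1.04 DCT nuclei per PC nucleus in the control libraries. In the DOCA libraries there were 1.05, 1.05, 1.12, 1.27 and 1.47. All 5 DOCA libraries lay above all 5 control libraries, so the groups did not overlap. The gap between them was narrow, since RK11.3 in control had a counting interval of 0.907 to 1.18 and RK9.1.Old.MO in DOCA one of 0.974 to 1.13. The geometric mean ratio was 1.82-fold higher in DOCA, a difference of 0.86 on the log2 scale. Without RK12.3, whose ratio of 0.238 lay far below the other controls, it was 1.42-fold higher. Taking RK12.2 and RK12.2.Old.MO as 1 value gave a log2 difference of 0.94, and tagged and untagged libraries gave 0.53 and 1.09.

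Of the 15 types other than PC, 3 had ratios to PC that were higher in every DOCA library than in every control library (20%). These were DCT, monocytes and proliferating tubule cells, and DCT was the only distal type among them. The ratios of the other distal types to PC overlapped. LOH nuclei per PC nucleus spanned 1.199 to 2.93 in the control libraries and 1.02 to 2.52 in the DOCA libraries. For IC_A, the acid-secreting intercalated cells, the ranges were 0.442 to 0.638 and 0.351 to 0.917, and for IC_B, the bicarbonate-secreting ones, 0.144 to 0.528 and 0.207 to 0.497. The ratio of DCT to LOH was 0.0839 to 0.864 in control and 0.584 to 1.03 in DOCA, with medians of 0.345 and 0.771.

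The next comparisons asked whether the drugs, given with DOCA, left the DCT share as it was with DOCA alone. All of them share the DOCA libraries. With spironolactone, DCT took 12.6%, 18.8%, 18.8%, 20.5% and 22.9% of distal nuclei. Every one of these libraries lay below every DOCA library, by a small step between 22.9% in RK6.1 (95% CI 21.4% to 24.5%) and 23.0% in the DOCA library RK7.2 (21.0% to 25.1%). The mean was 18.7%, 6.67 percentage points under DOCA, and the difference stayed between -7.71 and -5.14 with single libraries omitted. DCT was the only 1 of the 5 distal types that did not overlap in this comparison (20%). The difference was -6.88 percentage points in tagged and -6.52 in untagged libraries, and -6.68 without RK6.1.New.

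The mean LOH share was higher with spironolactone than with DOCA, although the ranges overlapped. LOH made up 36.2% to 62.0% of distal nuclei with spironolactone, on average 46.7%, and RK6.1.New had the highest LOH share of all libraries. With LOH left out, DCT took 26.4% to 49.5% of the other distal nuclei and the mean was 35.9%, against 38.1% with DOCA, and the ranges overlapped widely. DCT nuclei per PC nucleus were 0.858, 0.867, 0.909, 1.498 and 1.57 with spironolactone. Of these, 3 lay below and 2 above the whole DOCA range. The log2 difference of the geometric means was -0.11, -0.24 without RK6.1.New and -0.02 without RK4.2, and it turned to 0.20 with pooled nuclei. As a share of all nuclei, DCT was 2.08%, 3.43%, 4.84%, 5.49% and 9.91%, with a mean of 5.15% against 6.91% with DOCA. This difference of -1.77 percentage points was -2.96 without RK6.1.New, -0.990 without RK9.1.Old.MO and -0.831 with pooled nuclei.

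With finerenone the libraries fell into a lower and a higher set. DCT took 18.3%, 19.5%, 19.5%, 27.9% and 33.0% of distal nuclei, so 3 libraries lay below and 2 above the whole DOCA range. The mean was 23.6%, 1.75 percentage points under DOCA, a difference that turned to 1.63 in untagged libraries. It was -4.09 without RK3.1, -0.409 without RK2.2.Old.MO, -0.127 without all Multiome libraries and -5.95 with medians in place of means. The ratio of DCT to PC was 1.04, 1.21, 1.37, 1.46 and 1.69, which overlapped with DOCA. Its geometric mean was 1.13-fold that of DOCA, and 1.06-fold without RK8.2.New. PC made up 3.55% of all nuclei on average with finerenone (1.49% to 4.89%) and 6.01% with DOCA (3.03% to 9.57%), with overlap. With LOH left out, DCT took 37.4% to 43.7% of the other distal nuclei, with a mean of 40.2% against 38.1% with DOCA. As a share of all nuclei, DCT was 2.52%, 4.77%, 5.10%, 5.20% and 5.31%, with a mean of 4.58%, 2.33 percentage points under DOCA, and overlapped with it. The lowest of these was the library of 48403 nuclei, RK8.2.New, in which DCT took 27.9% of distal nuclei. In this comparison 1 of 16 types did not overlap (6.25%), which was IC_A. Without the 2 libraries of over 30000 nuclei, the difference in share of all nuclei was -1.71 and that in share of distal nuclei -1.79. For the share of all nuclei it was -0.125 in untagged and -5.13 in tagged libraries.

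Amiloride had only 2 libraries, both with tagged names. DCT took 29.7% (95% CI 28.1% to 31.3%) and 30.8% (29.0% to 32.6%) of their distal nuclei. Both lay above all DOCA libraries, by 4.84 percentage points on average, and LOH took 26.3% and 18.5%. DCT was again the only 1 of the 5 distal types that did not overlap with DOCA (20%). With LOH left out, however, DCT took 40.3% and 37.8% of the other distal nuclei, inside the DOCA range of 33.9% to 40.7%, and the difference was 0.909 percentage points. The ratios to PC were 1.07 and 2.04, so the 2 libraries differed more from each other than the DOCA libraries did. The share of all nuclei was 8.91% and 7.96%, within the DOCA range and 1.52 percentage points above its mean on average. This difference was 0.615 with pooled nuclei, 2.77 without Multiome libraries and 2.30 without RK9.1.Old.MO. Against the tagged DOCA libraries alone, it turned to -0.854. In this comparison 1 of 16 types, iPT, did not overlap (6.25%).

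**Figure D2:**
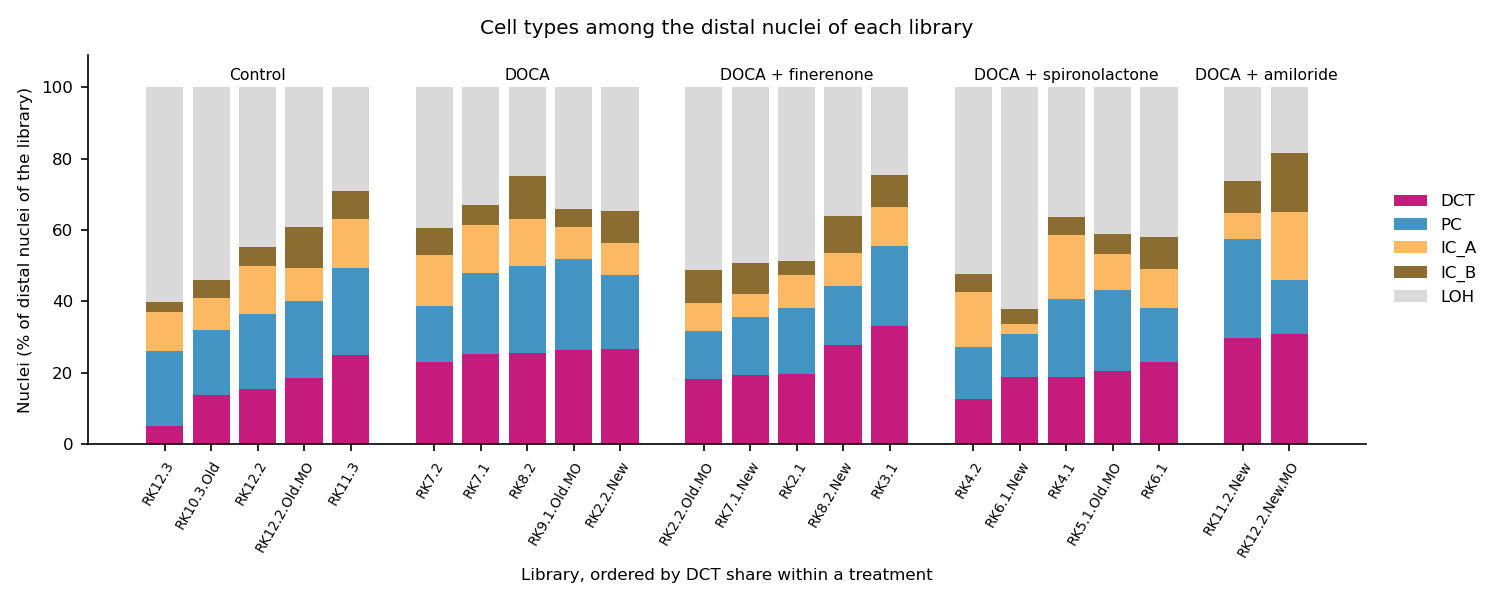
Percent of distal nuclei of each library that were DCT, PC, IC_A, IC_B or LOH, with libraries ordered by DCT share within a treatment. DCT, at the bottom of each bar, ran from 5.04% in a control library to 33.0% in a finerenone library, and LOH, at the top, from 18.5% in an amiloride library to 62.0% in a spironolactone library.

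The 5 Multiome libraries give 1 value per treatment from a single kit. DCT took 18.5% of distal nuclei in control, 26.5% with DOCA, 18.3% with finerenone, 20.5% with spironolactone and 30.8% with amiloride. The ratios to PC in the same order were 0.863, 1.05, 1.37, 0.909 and 2.04. The order of the treatments was the same as that of the means over all libraries except for finerenone, which had the lowest distal share here.

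Across all libraries the DCT share of all nuclei ranged 5.02-fold, from 2.00% to 10.0%. Of the 15 types that were found in every library, only PCT cells had a narrower range, at 2.97-fold. IC_B at 5.11-fold and IC_A at 5.94-fold were close to DCT, while LOH ranged 10.1-fold and PC 6.43-fold.

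On the deposited UMAP, DCT nuclei formed 1 compact body. Its median lay at 2.48 and 12.3 on the first and second coordinate, and 99.4% of DCT nuclei fell in a single connected area, when areas were traced on a grid of 0.25 units. A second area of 65 nuclei lay at -3.02 and 12.03, within the PC body. The nearest type by distance between medians was PC, at 4.90 units, followed by LOH at 6.04 and endothelial cells at 8.15. UMAP units have no scale of their own, and distances between bodies are only a rough description.

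The neighbors of DCT nuclei were almost all DCT. The cell type names were given to clusters of the same batch-corrected data that the UMAP shows. A compact body with mostly DCT neighbors thus follows in large part from how the type was named. Of the 30 nearest nuclei of each DCT nucleus, 96.5% on average were DCT, 1.59% PC and 1.26% LOH. All 30 neighbors were DCT for 73.0% of the nuclei. PC nuclei were the majority of neighbors for 237 DCT nuclei and LOH nuclei for 33. From the other side, 22.2% of PC nuclei had a DCT neighbor, against 1.88% of LOH nuclei. Mostly DCT neighbors were found for 226 LOH nuclei. Of these, 83 came from the single DOCA library RK9.1.Old.MO.

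**Figure D3:**
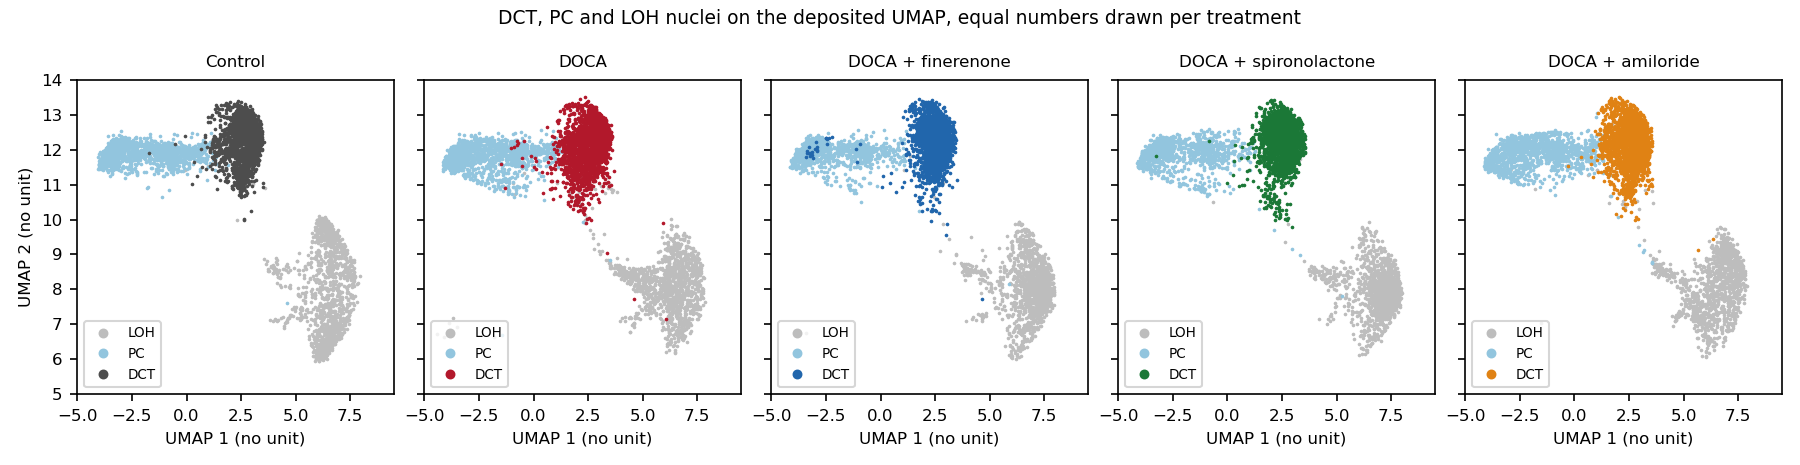
DCT, PC and LOH nuclei on the deposited UMAP in each treatment, with 1803 DCT, 1300 PC and 1300 LOH nuclei drawn at random per treatment and both axes without a unit. The strand of PC nuclei on the left reaches the DCT body in every panel, and the lower tip of the DCT body, below about 11 on the second coordinate, holds fewer nuclei in the control panel than in the DOCA and spironolactone panels. Each panel pools the libraries of its treatment, so that large libraries weigh more. Per library, the shares in the lower tip overlapped between control and DOCA.

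How DCT nuclei of different treatments lay within this body was then compared. The share of a library's DCT nuclei with at least 1 PC nucleus among the 30 nearest was 3.02%, 3.77%, 4.35%, 4.82% and 5.68% in control. It was 6.17%, 7.99%, 9.51%, 9.52% and 9.80% with DOCA. The groups did not overlap, although the counting intervals were wide in the small libraries, such as 2.03% to 13.8% in RK7.1 with DOCA. The means were 4.33% and 8.60%, a difference of 4.27 percentage points, and between 3.94 and 4.88 with single libraries omitted. With equal numbers of nuclei drawn from each treatment it was 5.59 percentage points, with the 10 nearest nuclei 2.53 and with the 100 nearest 7.44. When at least 3 PC neighbors were required it was 1.06, and the groups overlapped, with 1.31% to 4.59% of DCT nuclei in control and 2.47% to 5.36% with DOCA. LOH neighbors showed the same order, with 5.80% to 13.1% of DCT nuclei in control and 16.0% to 24.0% with DOCA. Of 13 types found among the neighbors, PC and LOH were the 2 that did not overlap between DOCA and control (15.4%). Proximal tubule neighbors, by contrast, overlapped, with 6.60% to 17.4% in control and 4.94% to 8.52% with DOCA.

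The share of DCT nuclei with a PC neighbor spanned a wider range with finerenone and spironolactone than with DOCA. It was 0.208%, 4.18%, 5.06%, 8.89% and 9.17% with finerenone and 1.47%, 6.22%, 6.77%, 9.30% and 11.5% with spironolactone. The lowest value in each belonged to a library of over 30000 nuclei, RK7.1.New and RK6.1.New. RK8.2.New, also over 30000 nuclei and the largest library, had the highest finerenone value, 9.17%. The means were 5.50% and 7.06%, with differences from DOCA of -3.097 and -1.54 percentage points. Without the libraries of over 30000 nuclei the differences were -2.55 and -0.142. Without RK7.1.New alone the finerenone difference was -1.77, and without RK4.1 the spironolactone difference was -2.66. Requiring at least 3 PC neighbors gave -1.01 with finerenone and -1.57 with spironolactone, and the 100 nearest nuclei gave -4.42 and -0.128. The 2 amiloride libraries, at 3.70% and 4.73%, lay below all DOCA libraries and inside the control range. Of the 13 neighbor types, 2 did not overlap between amiloride and DOCA (15.4%), PC, which was lower (7.69%), and fibroblasts, which were higher. Only 6 DCT nuclei of all libraries together had a fibroblast neighbor, so the fibroblast difference rests on very few nuclei. With at least 3 PC neighbors required, the amiloride values of 2.62% and 1.73% overlapped with DOCA, and the difference was -2.03 in place of -4.38 percentage points. LOH neighbors were found for 16.1% and 16.0% of the DCT nuclei of the amiloride libraries, within the DOCA range and above all control libraries. The mean share with an LOH neighbor was 15.4% with finerenone and 23.0% with spironolactone, against 20.9% with DOCA.

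The position of the DCT nuclei along the second coordinate was also compared. The median was 12.28, 12.31, 12.34, 12.38 and 12.48 in the control libraries. It was 12.10, 12.12, 12.15, 12.18 and 12.21 in the DOCA libraries, all below the control libraries. The drug groups overlapped with DOCA, at 12.201 to 12.38 with finerenone, 12.03 to 12.41 with spironolactone and 12.208 and 12.213 with amiloride. The amiloride libraries lay on either side of the highest DOCA library, whereas in PC neighbors they lay below all DOCA libraries. Of 30 median coordinates, 2 for each of 15 types found in every library, 3 did not overlap between DOCA and control (10%). They were the second coordinate of DCT and of PC and the first of iPT, the injured proximal tubule cells. The mean shifts were -0.207 units for DCT and -0.0323 for PC on the second coordinate, and -1.57 for iPT on the first.

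**Figure D4:**
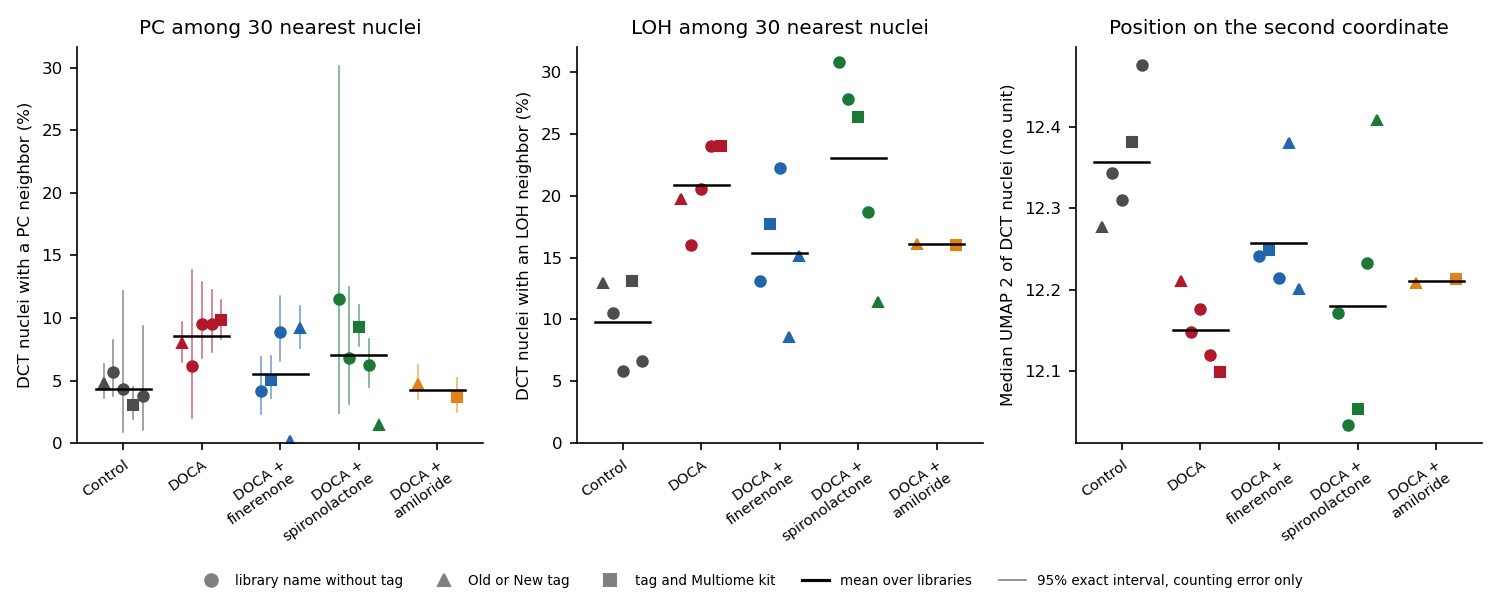
Percent of the DCT nuclei of each library with a PC nucleus (left) or an LOH nucleus (middle) among their 30 nearest on the UMAP, and median second UMAP coordinate of the DCT nuclei (right, no unit, axis not from 0). Each symbol is 1 library, black bars are means over libraries, and thin lines, drawn in the left panel only, are exact 95% intervals. Control and DOCA libraries do not overlap in any of the 3 panels.

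The lower tip of the DCT body, on the side of the LOH body, was taken as the lowest 5% of all DCT nuclei on the second coordinate, or 898 nuclei. Of these, 74.9% had an LOH neighbor and 16.4% a PC neighbor, against 13.1% and 4.67% of the other DCT nuclei. The tip held 0%, 0.943%, 1.09%, 1.41% and 7.87% of DCT nuclei in the control libraries and 3.16%, 8.64%, 9.34%, 11.2% and 11.3% in the DOCA libraries, so the groups overlapped. The 0% stands for 0 of 69 nuclei in RK12.2, which allows a share of up to 4.35%. The highest control library was the Multiome library RK12.2.Old.MO, and the lowest DOCA library was RK2.2.New. With spironolactone the tip held 9.26%, 14.4%, 15.4% and 18.8% in 4 libraries and 0 of 3339 nuclei in RK6.1.New, which allows a share of up to 0.0898%. With finerenone it held 2.69%, 2.70%, 7.17% and 8.89% in 4 libraries and 0 of 1920 nuclei in RK7.1.New, which allows up to 0.156%. For amiloride the values were 3.42% and 10.9%. RK6.1.New and RK7.1.New, each over 30000 nuclei, thus had no DCT nucleus where the other libraries of their treatments had them. RK8.2.New, also over 30000 nuclei, had 2.70% of its DCT nuclei in the tip.

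Mixing of libraries within the DCT body was measured among DCT nuclei alone. On average 13.4% of the 30 nearest DCT nuclei came from the same library, against 8.26% under random mixing at these DCT numbers, a ratio of 1.62. The ratio was 1.67 in RK6.1.New and 1.71 in RK7.1.New. It was highest in RK4.1, at 4.60, which rests on 26 nuclei, and lowest in RK11.3, at 1.10.

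To place each library between control and DOCA, its DCT nuclei were compared with those control and DOCA nuclei that came from other libraries. The share of control nuclei among the 30 nearest was divided by the share expected from the numbers of nuclei. This ratio was 1.07 to 1.13 in the control libraries. In the DOCA libraries it was 0.913, 0.929, 0.961, 0.969 and 1.08, so that 4 of them lay below all control libraries and RK2.2.New did not. It was 0.948 to 1.10 with finerenone, with 3 of 5 libraries above 1, and 0.831 to 1.08 with spironolactone, with 1 of 5 above 1, the library RK6.1.New. Both amiloride libraries were above 1, at 1.02 and 1.07. Over all libraries the ratio lay between 0.831 and 1.13. The UMAP was computed after the authors' batch correction.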

How the data were processed

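The annotation of each nucleus and its UMAP position were used, and both were joined by barcode for all 310282 nuclei. The authors aligned reads to rn6 with introns counted (Cell Ranger), corrected for ambient RNA (SoupX), dropped doublets (DoubletFinder) and low-quality nuclei, integrated the samples with Seurat and Harmony, and annotated clusters by markers. The submitters' processing notes list Cell Ranger 3.0.2 and 6.0.1 and Seurat 4.0.1. UMAP positions, deposited by the authors, are on a score scale without unit. Library, treatment and cell type are names given by the authors. Each of these filters can change the number of nuclei per type.

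Nuclei were counted per library with Python 3.11.15, pandas 2.3.3 and scipy 1.17.1, with exact 95% intervals for counting error, and 3 counts were taken as the limit of a count of 0. The code was tested on simulated data. Treatments were compared by means over libraries and by overlap of libraries. Planned permutation tests and correlations with library size were not run, since the library names match no sample's labels. No genes were named by rule, since no gene values were used. The members and lists were chosen with earlier results of these data known, and the lower tip, the LOH neighbors, the averaging of RK12.2 with RK12.2.Old.MO, the library subsets for PC neighbors and the measures screened for outlying libraries were chosen after seeing the data. The share of control nuclei among DCT neighbors was not planned either, at any number of neighbors.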

Additional observations from a re-analysis of the deposited data

Results flagged for a closer look

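The libraries of each treatment with 5 libraries were screened for 1 far from the others by Dixon's criterion. The 16 measures were the DCT shares of all, of distal and of distal nuclei without LOH, the LOH share of distal nuclei, the ratio of DCT to PC on the linear and on the log2 scale, the ratio of DCT to LOH, the shares with a PC, at least 3 PC, an LOH or a proximal tubule neighbor, both median UMAP coordinates, the share in the lower tip, and the control and same-library shares of neighbors over those expected. Of these 64 sets, 7 had such a library. About 1 in 20 would be marked by chance, and the measures are not independent of each other.

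In the finerenone group the DCT share of all nuclei was 2.52% in RK8.2.New, where the other 4 libraries had 4.77% to 5.31%. This library held 48403 nuclei, of which 85.7% were proximal tubule nuclei, against 46.3% to 61.1% in the other finerenone libraries. Its DCT share of the nuclei outside the proximal tubule, 17.7%, was the highest of the 5 libraries. In the same group the median second UMAP coordinate of DCT nuclei was 12.38 in RK7.1.New, above the other 4 libraries, and no DCT nucleus of that library lay in the lower tip of the DCT body.

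In control, the log2 ratio of DCT to PC was -2.07 in RK12.3, the library without which the DOCA ratio was 1.42-fold and not 1.82-fold that of control. On the linear scale its ratio of 0.238 did not meet the criterion. The same library had 2.26 times the expected share of DCT neighbors from its own library. RK12.2, with 69 DCT nuclei, had the highest share of DCT nuclei with a proximal tubule neighbor in control, 17.4%. RK12.2.Old.MO had 7.87% of its DCT nuclei in the lower tip, where the other control libraries had at most 1.41%. In the spironolactone group, RK4.1 had 4.60 times the expected share of same-library neighbors, which rests on 26 nuclei.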

How the results depend on the processing

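Each of the 20 differences between treatments was computed again under 6 to 10 other settings, 179 values in all, besides leaving out each library in turn. The 4 differences between DOCA and control kept their direction in all of these, and so did the distal shares with spironolactone and with amiloride against DOCA, but not their size or lack of overlap. The PC neighbor difference between DOCA and control was 1.06 in place of 4.27, with overlap, when at least 3 PC neighbors were required. Without LOH the distal share differences from DOCA were 0.909 in place of 4.84 with amiloride and -2.17 in place of -6.67 with spironolactone, both with overlap. For the share of all nuclei, finerenone minus DOCA was -5.13 percentage points in tagged and -0.125 in untagged libraries, and amiloride minus DOCA was 1.52 in all libraries, -0.854 in tagged libraries and 0.909 without RK7.2. Finerenone minus spironolactone was -0.568 for the share of all nuclei, -3.05 with pooled nuclei, -3.54 in tagged libraries, 0.262 with medians, 1.76 in untagged libraries, 1.25 without libraries over 30000 nuclei, 2.32 as a share of nuclei outside the proximal tubule, and -1.34 to 0.623 with each library left out, the last without RK6.1.New. Finerenone minus spironolactone was 4.91 for the distal share and 0.28 for the log2 ratio to PC, with overlap of libraries in both. These 2 differences kept their direction in every setting. The distal share difference was 0.704 with medians, and the log2 ratio difference was 0.031 with pooled nuclei. For the distal share, finerenone minus DOCA was 1.63 in untagged libraries and 2.10 without LOH. On the log2 scale, the finerenone minus DOCA ratio was -0.44 with LOH in place of PC. The spironolactone minus DOCA ratio to PC was 0.20 with pooled nuclei and 0.049 in tagged libraries. For amiloride it was -0.19 without Multiome libraries, and -0.14 without RK12.2.New.MO to 0.78 without RK11.2.New. The PC neighbor difference of finerenone minus spironolactone was 0.56 when at least 3 PC neighbors were required. The cause of these changes was not tested. Fewer than 100 DCT nuclei limit RK4.1, RK7.1 and RK12.2. No paired analysis was possible because the libraries were not matched to sample labels, which carry the replicate numbers.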
